A study of Mus musculus with 12 samples.

Results

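The genes described here are the protein-coding mouse genes of oxidative phosphorylation, chosen by their symbols: Nduf genes, Sdha to Sdhd, Uqcr genes, Cox4 to Cox8 genes, Atp5 genes, and all protein-coding mt- genes. The rule found 107 genes among 35896 genes with a matched transcript. Of these, 94 lie in nuclear chromosomes and 13 in the mitochondrial genome. They were followed through whole uteri of wild-type Swiss Webster females of 8 to 12 weeks, 3 animals in each of 4 stages of the estrous cycle (proestrus, estrus, metestrus and diestrus). No animal was treated, and stage is the only factor that the labels vary. RNA with a poly(A) tail was profiled by 3' TagSeq, which reads a fragment near the 3' end of each transcript. A uterus holds muscle, stroma, epithelium, vessels and immune cells, and the values are averages over all of them.

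Mitochondria make ATP by passing electrons from NADH and succinate through complexes I to IV of the respiratory chain. The protons pumped on the way drive complex V, the ATP synthase. Complexes I, III, IV and V are built from subunits of both genomes, while complex II is nuclear throughout. The nuclear genes are transcribed in the nucleus and their proteins imported, whereas the mitochondrial genes are transcribed inside the organelle as long precursors that are cut into single mRNAs.

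Of the 107 genes, 103 passed the filter on low counts, 90 nuclear and all 13 mitochondrial. The 4 that did not pass were Cox6a2, Cox7b2, Cox8c and a second gene model named Atp5o, with 6, 4, 2 and 0 counts over the 12 samples. Matched counts per sample ran from 1641289 to 2185062. Levels are given as CPM, counts divided by the library size and put on a common scale, after scaling by the trimmed mean of M values, so that a change of a gene is a change relative to the bulk of the other genes. Differences are log2 fold changes with their standard error (SE) from edgeR's quasi-likelihood fit of all 12 samples, and adjusted p-values are over all 12052 genes tested, with 0.05 as the threshold.

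The nuclear genes took a smaller share of the uterine mRNA in estrus than in proestrus or diestrus, whereas the share of the mitochondrial genes differed by less than its spread. The 94 nuclear genes together held 1.64% ± 0.0134 of the counts in proestrus, 1.30% ± 0.0514 in estrus, 1.38% ± 0.163 in metestrus and 1.65% ± 0.0593 in diestrus uteri (mean ± SD, n = 3 per stage). All 3 estrus uteri (1.25% to 1.36%) lay below all proestrus uteri (1.63% to 1.66%) and all diestrus uteri (1.58% to 1.69%), while metestrus ran up to 1.496% from 1.197% and overlapped with estrus. The 13 mitochondrial genes held 1.85% ± 0.146 of the counts in proestrus and 1.80% ± 0.286 in estrus, then 1.96% ± 0.258 in metestrus and 1.91% ± 0.109 in diestrus uteri (again the SD of 3 samples), and these ranges overlapped for every pair of stages. Counts given to nuclear copies of the mitochondrial genes, described below, are not in these shares. With them the shares were 2.47% ± 0.207 in proestrus, 2.51% ± 0.416 in estrus, 2.68% ± 0.337 in metestrus and 2.58% ± 0.155 in diestrus uteri. Those ranges overlapped as well. In such bulk samples, fewer cells of a type and less RNA per cell cannot be told apart.

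The log2 ratio of nuclear to mitochondrial counts was -0.17 ± 0.117 in proestrus, -0.45 ± 0.179 in estrus, -0.50 ± 0.205 in metestrus and -0.21 ± 0.0444 in diestrus uteri (mean ± SD, n = 3 per stage). Its mean was thus 0.28 lower in estrus than in proestrus, but the ranges of these stages (-0.61 to -0.26 and -0.28 to -0.047) overlapped. Among the estrus uteri the mitochondrial share ran from 1.497% to 2.064%, and the lowest ratio of all samples, in metestrus replicate 7 (-0.64), went with the lowest nuclear share (1.197%) beside a mitochondrial share of 1.87%.

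**Figure D1:**
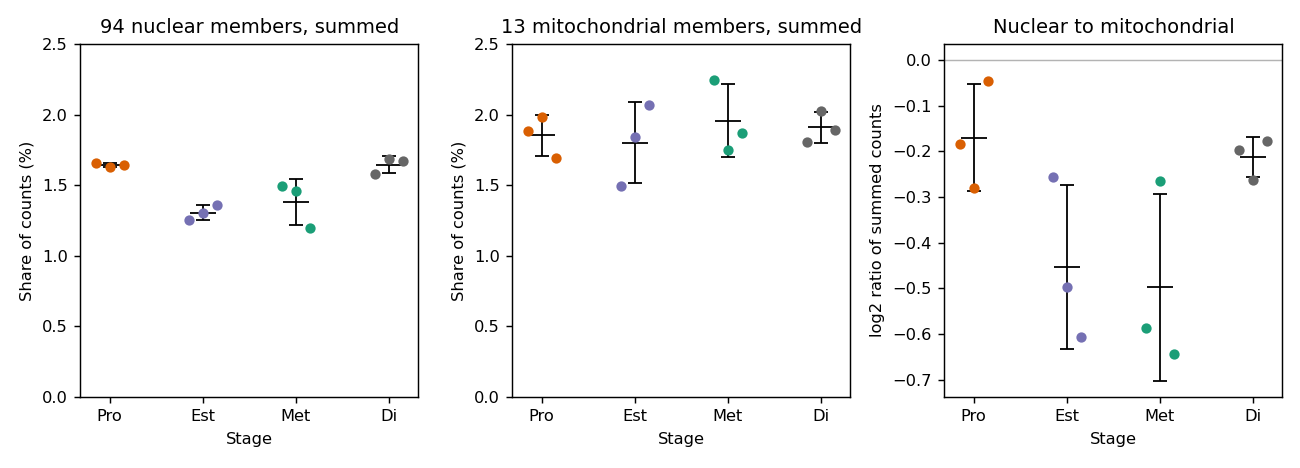
Share of matched counts (%) held by the nuclear and the mitochondrial members, and the log2 ratio of the 2 sums, by stage; points are uteri (3 per stage), bars the mean and SD. The 3 estrus points of the nuclear share (1.25% to 1.36%) lie below all proestrus and diestrus points, while the mitochondrial share overlaps between all stages.

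Over the 4 stages, 18 of 90 nuclear and 2 of 13 mitochondrial genes passed the F test, and 23.2% of all genes tested did. The nuclear count was 9 without proestrus replicate 3 or estrus replicate 5, 10 without proestrus replicate 1 or diestrus replicate 5, and 11 without proestrus replicate 2, estrus replicate 3 or 4, or diestrus replicate 3. It was 12 without diestrus replicate 4 and 19, 28 and 27 without metestrus replicate 5, 6 or 7, and DESeq2 called 26. Over all genes the F test called 2793 with all samples and 1910 to 2252 with 1 proestrus, estrus or diestrus sample left out. It called 3212 to 3428 with 1 metestrus sample left out, and DESeq2 called 2850. Mean levels were lowest in estrus for 59 of 90 nuclear genes (65.6%), against 32.7% of all genes tested, and highest in estrus for 3. The highest mean was in proestrus for 52 nuclear genes and in diestrus for 32. Of the mitochondrial genes, 4 of 13 were lowest in estrus and 3 were highest there.

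From proestrus to estrus, 24 nuclear genes fell and none rose, where 7.46% of all genes fell and 9.67% rose. The median log2 fold change of the 90 nuclear genes was -0.33, with 81 of them below 0, beside a median of 0.02 over all genes. In 55 of 90, all 3 estrus samples lay below all 3 proestrus samples, which held for 18.1% of all genes. The count depended on single samples: of nuclear and mitochondrial members together 26 were called, and 10 without proestrus replicate 1 or without proestrus replicate 3, 13 without estrus replicate 5, 14 without estrus replicate 4, 15 without proestrus replicate 2 and 16 without estrus replicate 3. Over all genes, 1165 rose and 899 fell with all samples, and 1100 to 1445 were called with any 1 of these samples left out. Among the mitochondrial genes, mt-Nd1 fell and mt-Co1 rose, and the median was -0.03. The call of mt-Co1 was lost once the counts of its nuclear copy were added (adjusted p = 0.157). The sign of that median turned with other settings, to 0.033 with limma-voom, 0.043 with copies added and 0.12 without proestrus replicate 2, so that no direction is given. The nuclear median lay between -0.36 and -0.33 under each of the 4 scalings tried and between -0.37 and -0.32 when any 1 sample was left out.

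From estrus to diestrus, 19 nuclear genes and mt-Nd1 rose, mt-Co1 fell and no nuclear gene fell, where 9.72% of all genes rose and 13% fell. The nuclear median was 0.28, with 80 of 90 above 0, and the mitochondrial median was -0.04, which turned to 0.026 with library totals and 0.12 without diestrus replicate 3. The number of members called, 21 with both genomes together, was 13 without diestrus replicate 4 and 14 without diestrus replicate 5. Over all genes, 1172 rose and 1572 fell with all samples, and 2042 and 2033 were called without these replicates. The fall of mt-Co1 was not called with the counts of its copy added (adjusted p = 0.0914). In 52 nuclear genes all 3 diestrus samples lay above all 3 estrus samples, which held for 20.6% of all genes. Both comparisons use the same 3 estrus uteri, so that the fall and the rise are not independent of each other.

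Complex I takes electrons from NADH and passes them to ubiquinone. Of its 36 nuclear subunit genes, 10 fell from proestrus to estrus and 12 rose from estrus to diestrus, with medians of -0.28 and 0.31. The 7 core subunits, which carry the redox centers and are shared with bacteria, included 1 that fell (Ndufv2, -0.39, adjusted p = 0.0488). The 29 accessory subunits included 9. The fall of Ndufv2 held in 5 of 12 fits with 1 sample left out (adjusted p up to 0.139, without estrus replicate 4). With no filter on low counts it was not called. The medians of the core and accessory subunits were -0.25 and -0.29. Ndufa3 held the most counts of the complex, and its F test gave an adjusted p of 0.798.

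Ndufb4 (chr16:37647170-37654453 in GRCm38), an accessory subunit of the membrane arm, had 122, 131 and 117 CPM in proestrus, 81.0, 71.5 and 75.6 in estrus, 102, 106 and 103 in metestrus and 118, 116 and 121 in diestrus. All 3 estrus uteri were the lowest, and no estrus value overlapped with those of another stage. The log2 fold change was -0.69 ± 0.11 (adjusted p = 0.00172) from proestrus to estrus and 0.64 ± 0.11 (adjusted p = 0.00156) from estrus to diestrus. It also rose from estrus to metestrus, by 0.45 (adjusted p = 0.0314), a call that held in 8 of 12 fits with 1 sample left out (adjusted p up to 0.0916, without estrus replicate 5). The annotated copy Ndufb4c, all of whose sequence words occur in Ndufb4, had a mean of 24.6 CPM over the samples, and with its counts added the log2 change into estrus was -0.66.

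Ndufa11 (chr17:56717767-56722141), a membrane arm subunit that helps to hold complex I together, had 131, 131 and 157 CPM in proestrus, 74.2, 61.8 and 70.5 in estrus, 77.3, 104 and 53.1 in metestrus and 82.3, 84.0 and 91.7 in diestrus. Proestrus stood above every other sample, estrus lay below diestrus, and metestrus overlapped with both. It fell by 1.02 on the log2 scale into estrus (adjusted p = 0.00383), and stayed lower in metestrus than in proestrus (-0.84, adjusted p = 0.0287). It was higher in proestrus than in diestrus by 0.70 (adjusted p = 0.0358). The lower level in metestrus held in 8 of 12 fits with 1 sample left out (adjusted p up to 0.113, without proestrus replicate 3), and the difference from diestrus held in 4 of 12 fits with 1 sample left out (adjusted p up to 0.139, without proestrus replicate 3). Its exons overlap with those of Vmac on the other strand, and whether counting used strand is not given in the sources used here.

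Ndufc2 (chr7:97400003-97407802), which joins the membrane arm, had 108, 113 and 107 CPM in proestrus, 60.6, 70.9 and 82.0 in estrus, 96.0, 107 and 68.0 in metestrus and 132, 139 and 134 in diestrus. Diestrus was above every other sample and estrus overlapped only with metestrus. It fell into estrus by 0.62 (adjusted p = 0.0213) and rose to diestrus by 0.92 ± 0.16 (adjusted p = 0.00155). The fall held in 7 of 12 fits with 1 sample left out (adjusted p up to 0.0828, without estrus replicate 3). Its partner gene Ndufc1 had 278, 270.1 and 288 CPM in proestrus, 199.8, 221 and 207 in estrus, 200.2, 246 and 204 in metestrus and 263, 287 and 271 in diestrus. Ndufc1 was higher in all 3 proestrus and all 3 diestrus uteri than in estrus, with a fall of 0.41 into estrus (adjusted p = 0.0313) that held in 7 of 12 fits with 1 sample left out (adjusted p up to 0.099, without proestrus replicate 3).

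Ndufa12 (chr10:94198720-94221443), an accessory subunit of the arm that binds NADH, had 160.3, 171 and 151 CPM in proestrus, 80.4, 92.7 and 108 in estrus, 134, 145 and 107 in metestrus and 141, 167 and 154 in diestrus. Estrus lay below proestrus and diestrus without overlap. The changes were -0.78 ± 0.15 into estrus (adjusted p = 0.00399) and 0.71 ± 0.15 from estrus to diestrus (adjusted p = 0.0042).

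Ndufb6 (chr4:40270591-40279421), another membrane arm subunit, had 105, 91.6 and 117 CPM in proestrus, 60.6, 60.1 and 56.3 in estrus, 83.5, 81.4 and 57.2 in metestrus and 87.2, 111 and 94.5 in diestrus. Estrus was again below proestrus and diestrus, and metestrus replicate 7 lay within the estrus range. Ndufb6 fell by 0.83 (adjusted p = 0.00474) and rose by 0.73 (adjusted p = 0.00641). It shares exon sequence with Smim27 on the other strand, so that part of these counts cannot be assigned to one gene with certainty.

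Ndufab1 (chr7:122085403-122101886), the mitochondrial acyl carrier protein, which also serves lipoic acid synthesis and iron-sulfur cluster assembly, had 152, 149 and 157 CPM in proestrus, 105, 96.1 and 89.3 in estrus, 111, 128 and 75.7 in metestrus and 138, 138 and 138 in diestrus. The proestrus and diestrus values were tight and all above those of estrus, while the metestrus values spread from 75.7 to 128 CPM. Its change was -0.66 ± 0.16 into estrus (adjusted p = 0.0139), and this call held in 10 of 12 fits with 1 sample left out (adjusted p up to 0.0559, without estrus replicate 5).

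Complex I is put together with the help of assembly factors that are absent from the finished enzyme. Of the 8 Ndufaf genes, 2 fell into estrus and 3 rose to diestrus, and 7 had their lowest mean in estrus. Among the nuclear groups compared they were the one with the lowest median change into estrus, -0.54.

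Ndufaf7, a methyltransferase that acts in the assembly of complex I, had 24.0, 33.4 and 29.4 CPM in proestrus, 16.1, 14.3 and 15.6 in estrus, 22.8, 27.8 and 23.3 in metestrus and 30.9, 29.7 and 26.6 in diestrus. The 3 estrus values were the lowest of the 12. Ndufaf7 fell by 0.92 into estrus (adjusted p = 0.00561) and rose by 0.92 to diestrus (adjusted p = 0.00344). Ndufaf6, needed early in assembly, had 9.13, 7.01 and 5.58 CPM in proestrus, 1.86, 2.29 and 1.83 in estrus, 3.11, 7.57 and 4.77 in metestrus and 6.48, 6.92 and 8.49 in diestrus. Its estrus values stood at 3 to 4 counts per library, so that the log2 change of -1.83 ± 0.45 (adjusted p = 0.0141) has a wide error. That call held in 10 of 12 fits with 1 sample left out (adjusted p up to 0.0595, without proestrus replicate 1). Ndufaf4, which acts with Ndufaf3, had 27.4, 28.6 and 29.4 CPM in proestrus, 16.7, 24.0 and 14.2 in estrus, 26.5, 27.8 and 22.1 in metestrus and 41.9, 28.7 and 33.4 in diestrus, with a rise from estrus to diestrus of 0.93 ± 0.22 (adjusted p = 0.0078).

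Complex II, succinate dehydrogenase, is also an enzyme of the citric acid cycle. Of its 4 genes only Sdhb passed the threshold from proestrus to estrus, while all 4 had a log2 change below 0 (-0.57 to -0.20). Sdhb (chr4:140961203-140979193), the iron-sulfur subunit, had 85.6, 65.2 and 79.2 CPM in proestrus, 47.0, 52.0 and 55.0 in estrus, 48.2, 67.5 and 48.9 in metestrus and 77.3, 64.3 and 67.4 in diestrus. Proestrus lay above estrus without overlap, and the change was -0.57 ± 0.16 (adjusted p = 0.0281). This call held in 7 of 12 fits with 1 sample left out (adjusted p up to 0.107, without proestrus replicate 1). Sdhc, a membrane anchor, held the most counts of complex II and gave an F test p of 0.113 after adjustment.

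Complex III passes electrons from ubiquinol to cytochrome c. Of its 8 nuclear subunit genes that the rule found, Uqcr10 fell into estrus by 0.47 (adjusted p = 0.0192). Uqcr11 rose from estrus to diestrus by 0.48 (adjusted p = 0.0128). Both encode small subunits without redox centers. Cyc1, which also belongs to complex III, does not match the rule and is given below with the electron carriers, where it fell into estrus. The fall of Uqcr10 held in 9 of 12 fits with 1 sample left out (adjusted p up to 0.0721, without proestrus replicate 3). Uqcrq, another small subunit, held the most counts, and its change into estrus was -0.45 (adjusted p = 0.0501).

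Complex IV, cytochrome c oxidase, reduces oxygen. Cox6c, Cox7b and Cox5b fell into estrus, the median of the 15 tested subunit genes was -0.32, and only Cox6c rose from estrus to diestrus. The fall of Cox7b held in 6 of 12 fits with 1 sample left out (adjusted p up to 0.0949, without proestrus replicate 2), and that of Cox5b held in 3 of 12 fits with 1 sample left out (adjusted p up to 0.135, without estrus replicate 4). With no filter on low counts neither was called.

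Cox6c (chr15:35925886-35938246), a small nuclear subunit, held the most counts among complex IV nuclear genes and had the smallest F test p of all members (adjusted p = 0.00034). It had 438, 447 and 427 CPM in proestrus, 339, 277 and 326 in estrus, 463, 601 and 469.8 in metestrus and 677, 749 and 815 in diestrus. Estrus was lowest and diestrus highest, with no overlap of either with another stage, whereas metestrus lay from 463 to 601 CPM. It fell into estrus by 0.48 (adjusted p = 0.0336), rose to metestrus by 0.70 ± 0.14 (adjusted p = 0.0107) and was 1.25 ± 0.14 higher in diestrus than in estrus (adjusted p = 7.8e-05). Proestrus was -0.77 relative to diestrus (adjusted p = 0.00428). Its F test and its other calls held with each sample left out in turn, while the fall into estrus held in 7 of 12 fits with 1 sample left out (adjusted p up to 0.107, without estrus replicate 4).

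Several subunits of complex IV come as isoforms of different tissues, the heart and skeletal muscle forms beside the broadly expressed ones. The broad forms had the higher levels throughout. Cox4i1 had 445, 453 and 416 CPM in proestrus, 532, 503 and 522 in estrus, 509, 441 and 528 in metestrus and 437, 529 and 495 in diestrus. It was the exception among them, with all estrus values above all proestrus values, and edgeR gave an adjusted F test p of 0.45. Cox6a1 had 237, 264 and 251 CPM in proestrus, 240.0, 209.9 and 219 in estrus, 195, 227 and 179 in metestrus and 242, 218 and 259 in diestrus. Cox6b1 had 461, 493 and 464 CPM in proestrus, 380.4, 352 and 388 in estrus, 420.1, 385 and 315 in metestrus and 391, 431 and 424 in diestrus, and Cox7a2 had 302, 282 and 299 CPM in proestrus, 224, 239.7 and 235 in estrus, 233, 251 and 217 in metestrus and 261, 292 and 262 in diestrus. For Cox6b1 and Cox7a2, all estrus values lay below all proestrus values, but the adjusted F test p was 0.147 and 0.0859.

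Cox8a had 460.3, 479.8 and 444 CPM in proestrus, 434, 427 and 446 in estrus, 407, 461 and 449 in metestrus and 415, 458 and 429 in diestrus, which overlapped in every stage. Ndufa4, first listed with complex I and later placed in complex IV, had 423, 454 and 453 CPM in proestrus, 375, 355 and 353 in estrus, 349, 364 and 279 in metestrus and 360.4, 413 and 363 in diestrus. Its proestrus values were above all others, with an adjusted F test p of 0.105.

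The restricted forms were far lower, some near the level of 3 counts, which is 1.37 to 1.89 CPM depending on the sample. Cox4i2, an isoform known from lung, had 6.27, 3.23 and 3.04 CPM in proestrus, 0, 3.43 and 5.95 in estrus, 3.63, 6.94 and 2.98 in metestrus and 11.5, 9.39 and 7.36 in diestrus, with an adjusted F test p of 0.224. Cox7a1, the heart and skeletal muscle form, had 5.13, 5.39 and 7.10 CPM in proestrus, 3.71, 3.43 and 5.95 in estrus, 3.11, 5.05 and 2.38 in metestrus and 5.48, 8.90 and 9.06 in diestrus. Cox6b2, known from testis, had 17.1, 10.8 and 20.3 CPM in proestrus, 19.8, 16.0 and 10.5 in estrus, 10.9, 18.9 and 11.9 in metestrus and 15.0, 24.2 and 18.1 in diestrus. None of these passed the F test.

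Cox8b had 0, 1.08 and 0.507 CPM in proestrus, 0.619, 3.43 and 2.29 in estrus, 6.22, 0.631 and 4.17 in metestrus and 3.49, 5.93 and 6.23 in diestrus, and was lower in proestrus than in diestrus (adjusted p = 0.0398), on 65 counts in all and with 3 counts over the proestrus group, so that no fold is given. The call held in 4 of 12 fits with 1 sample left out (adjusted p up to 0.137, without proestrus replicate 3). Cox6a2, the heart and skeletal muscle partner of Cox6a1, had 6 counts over all samples. Ndufa4l2, a relative of Ndufa4 known as a hypoxia-induced gene, had 7.42, 7.55 and 7.61 CPM in proestrus, 6.19, 4.00 and 4.58 in estrus, 8.82, 14.5 and 10.7 in metestrus and 8.48, 10.9 and 6.23 in diestrus. It rose from estrus to metestrus by 1.20 ± 0.34 (adjusted p = 0.0484), a call that held in 1 of 12 fits with 1 sample left out (adjusted p up to 0.158, without metestrus replicate 6).

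Complex V turns the proton gradient into ATP. Of 16 tested nuclear subunit genes 7 fell into estrus, all 16 had a log2 change below 0 and the median was -0.37. Among the 16 was Atp5g2, whose change was 0.053 once the counts of a pseudogene sharing its sequence were added. Summed over the subunits, complex V had 4850 ± 43.4 CPM in proestrus and 3563 ± 49.4 in estrus (SD, n = 3 each), a ratio of 0.735. The ratio was 0.831 for complex I, 0.795 for II, 0.861 for III and 0.847 for IV, each over the nuclear subunits that the rule found.

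Atp5g1, Atp5g2 and Atp5g3 encode the same mature protein, subunit c of the rotor ring, from separate genes. Atp5g1 (chr11:96068852-96075670) had 494, 590.3 and 561 CPM in proestrus, 271, 269 and 267 in estrus, 356, 469.6 and 337 in metestrus and 375, 461 and 519.6 in diestrus. Its estrus values were within 267 to 271 CPM and lay below all others, and proestrus was the highest stage by its mean. The log2 change was -1.03 ± 0.16 into estrus (adjusted p = 0.0013) and 0.75 ± 0.16 from estrus to diestrus (adjusted p = 0.00453), and its highest stage mean was 2.04 times its lowest.

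Atp5g3 (chr2:73908447-73911326) had 319, 295 and 328 CPM in proestrus, 209, 213 and 223 in estrus, 234, 251 and 206 in metestrus and 270.2, 282 and 259 in diestrus. It fell by 0.55 into estrus (adjusted p = 0.0076) and was also lower in metestrus than in proestrus (-0.45, adjusted p = 0.0489). The latter call held in 1 of 12 fits with 1 sample left out (adjusted p up to 0.157, without proestrus replicate 3). Atp5g2 could not be followed by itself. It had 19.5 CPM on average while the transcribed pseudogene Gm10175, all of whose sequence words it contains, had 214, and with both summed the change into estrus was 0.053 (adjusted p = 0.817).

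Atp5a1 and Atp5b encode the alpha and beta subunits of the catalytic head. Atp5a1 had 262, 276 and 255 CPM in proestrus, 193, 191 and 202 in estrus, 192, 211 and 216 in metestrus and 221, 218 and 222 in diestrus. Atp5b, the nuclear member with the most counts, had 772, 823 and 791 CPM in proestrus, 638, 584 and 554 in estrus, 594, 673 and 611 in metestrus and 702, 744 and 749 in diestrus. In both, all proestrus values were above all estrus values, and they fell by 0.44 (adjusted p = 0.0162) and 0.43 (adjusted p = 0.0251). The call of Atp5a1 held in 11 of 12 fits with 1 sample left out (adjusted p up to 0.0576, without proestrus replicate 2), and that of Atp5b held in 7 of 12 fits with 1 sample left out (adjusted p up to 0.0781, without proestrus replicate 2). Atp5f1, a peripheral stalk gene, completed the set of 18 nuclear genes called by the F test, together with Atp5b and Uqcr11. The F test call of Atp5f1 held in 1 of 12 fits with 1 sample left out (adjusted p up to 0.12, without proestrus replicate 1). That of Atp5b held in 4 of 12 such fits (adjusted p up to 0.12, without proestrus replicate 2). That of Uqcr11 held in 3 of 12 (adjusted p up to 0.129, without estrus replicate 4). For Atp5a1 and Sdhb the F test call held in 3 of 12, for Ndufc1 in 4, for Ndufaf4 in 5 and for Ndufaf6 in 6. It held in 9 for Ndufab1, 11 for Atp5g3 and 12 for the other called nuclear genes.

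**Figure D2:**
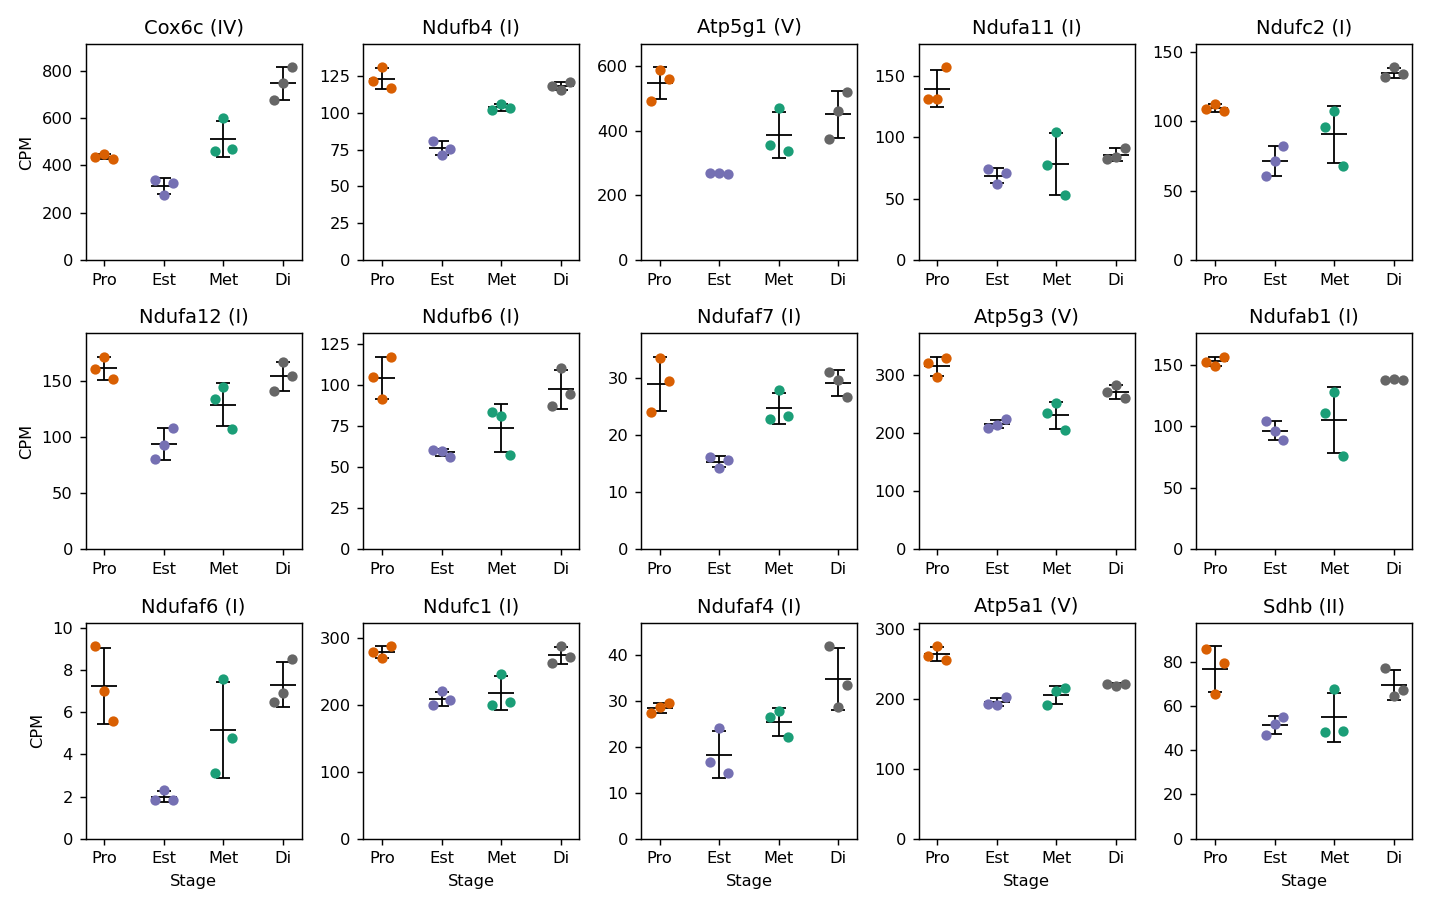
CPM by stage of the 15 nuclear members with the smallest F test p; points are uteri (3 per stage), bars the mean and SD, each axis starts at 0. Estrus is the lowest stage mean in most panels, Ndufa11 is high in proestrus alone and Cox6c and Ndufc2 peak in diestrus.

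**Figure D3:**
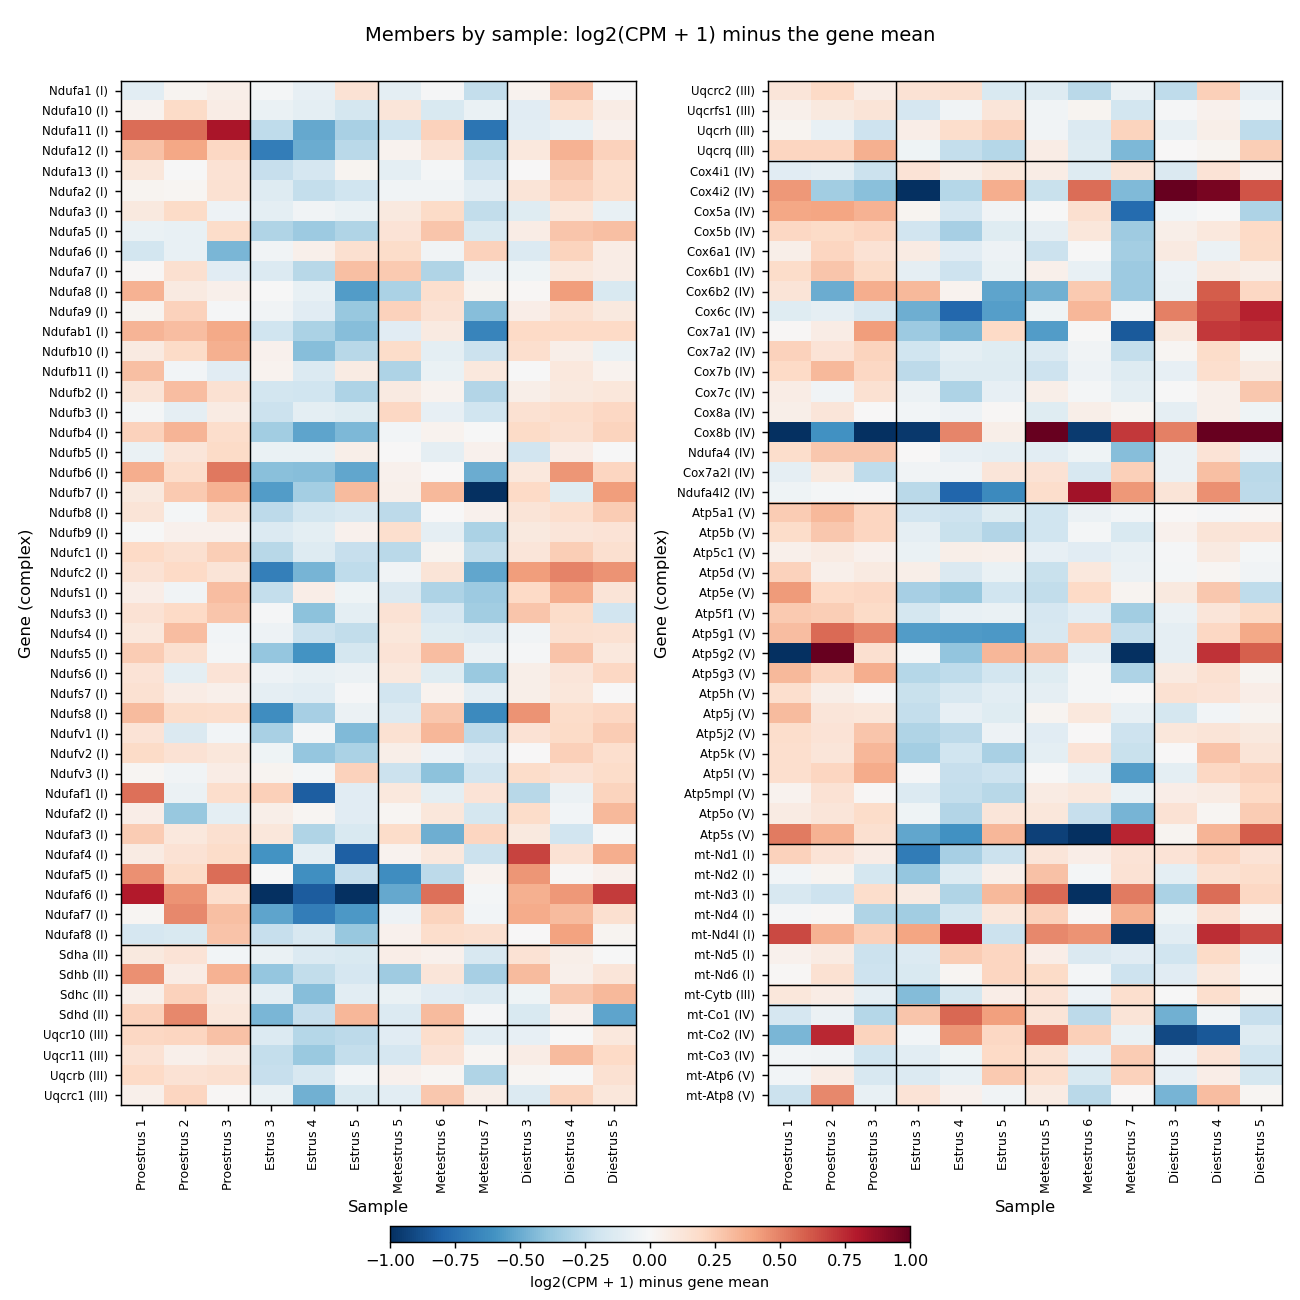
Each row is a tested member, labelled with its complex, and each column a uterus; color is log2(CPM + 1) minus the gene mean. Most nuclear rows are blue in the 3 estrus columns, and many are also blue in metestrus replicate 7; the mitochondrial rows at the lower right show no such common shade.

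The 13 mitochondrial genes are the part of the chain made inside the organelle. The genes of 1 strand are cut from a shared precursor, while mt-Nd6 lies on the other strand. Between stages they showed no common change. The gene with the most counts, mt-Co3, had 3296, 3289.9 and 2936 CPM in proestrus, 3131, 3271 and 3863 in estrus, 3739, 3173 and 4011 in metestrus and 3251, 3689.7 and 2923 in diestrus. All its stages overlapped, and edgeR gave an adjusted F test p of 0.696.

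mt-Nd1 (chrM:2751-3707), a core subunit at the ubiquinone site of complex I, was the mitochondrial gene with a fall in estrus. It had 2030.1, 1904 and 1827 CPM in proestrus, 1071, 1376 and 1492 in estrus, 1884, 1819 and 1909 in metestrus and 1905, 2012 and 1909 in diestrus. All 3 estrus uteri were below all 9 others. The change was -0.55 ± 0.14 into estrus (adjusted p = 0.0163), 0.51 ± 0.14 from estrus to metestrus (adjusted p = 0.0403) and 0.56 ± 0.14 from estrus to diestrus (adjusted p = 0.00991). No word of 31 bases of its sequence was found in another gene, so that no copy takes its counts. The fall held in 10 of 12 fits with 1 sample left out (adjusted p up to 0.0646, without proestrus replicate 1), and the rise to metestrus held in 4 of 12 fits with 1 sample left out (adjusted p up to 0.114, without estrus replicate 3).

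The other subunits of complex I in this genome were not called from their own counts. mt-Nd2 had 2822, 2928 and 2544 CPM in proestrus, 2194, 2626 and 2973 in estrus, 3526, 2836 and 3173 in metestrus and 2680.2, 3189 and 3239.6 in diestrus. mt-Nd4 had 2017, 2051 and 1655 CPM in proestrus, 1599, 1809 and 2208 in estrus, 2392, 2054 and 2612 in metestrus and 1975, 2255 and 2062 in diestrus. In both, estrus overlapped with proestrus and with diestrus.

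mt-Nd5 had 773, 797 and 647 CPM in proestrus, 684, 896 and 872 in estrus, 789, 682 and 696 in metestrus and 655, 858 and 736 in diestrus. mt-Nd6 had 1873, 2064 and 1609.8 CPM in proestrus, 1669.6, 1887 and 2156 in estrus, 2118, 1833 and 1611 in metestrus and 1720.5, 1993 and 1855 in diestrus. For mt-Nd6, reads of the opposite strand cannot be told apart, because the use of strand is not given in the sources used here.

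mt-Nd3 had 28.0, 27.0 and 35.5 CPM in proestrus, 33.4, 25.2 and 39.4 in estrus, 46.7, 10.7 and 45.3 in metestrus and 24.9, 46.5 and 36.2 in diestrus. mt-Nd4l had 33.7, 27.0 and 24.9 CPM in proestrus, 27.8, 37.2 and 17.9 in estrus, 29.6, 29.0 and 0 in metestrus and 19.4, 35.6 and 34.0 in diestrus. Both are small subunits of the membrane arm, and nearly all of their sequence recurs in nuclear copies.

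mt-Cytb, the cytochrome b of complex III, had 1328, 1292 and 1150.5 CPM in proestrus, 907, 1084 and 1286 in estrus, 1347, 1184 and 1377 in metestrus and 1223, 1373 and 1245 in diestrus. mt-Atp6, the channel subunit of complex V, had 2863, 3059.7 and 2606 CPM in proestrus, 2648, 2771 and 3499.9 in estrus, 3275, 2620.2 and 3421 in metestrus and 2744, 3051 and 2576 in diestrus. mt-Atp8 had 264, 427 and 291 CPM in proestrus, 337, 315 and 299.5 in estrus, 324, 254 and 306 in metestrus and 221, 379 and 310.2 in diestrus. None of these 3 passed the F test.

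mt-Co1 and mt-Co2 encode the catalytic subunits of complex IV. mt-Co1 had 577, 624 and 534 CPM in proestrus, 787, 967 and 864 in estrus, 712, 542 and 709 in metestrus and 466, 633 and 554 in diestrus. All 3 estrus values were the highest of the 12, with a rise into estrus of 0.59 ± 0.16 (adjusted p = 0.02) that held in 8 of 12 fits with 1 sample left out (adjusted p up to 0.0963, without estrus replicate 4). mt-Co2 had 685, 1592 and 1099 CPM in proestrus, 924, 1276 and 1087 in estrus, 1400.4, 1111 and 897 in metestrus and 503, 522 and 859 in diestrus, and its stages overlapped except that diestrus lay below metestrus and estrus.

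These levels depend on how reads were divided between a mitochondrial gene and a nuclear copy of it on chromosome 1. The copy Gm29216 is 492 bases long and matches the last 492 bases of mt-Co1, the end that 3' TagSeq reads, with 6 mismatches, all near its start. Gm28661 matches the first 681 of 684 bases of mt-Co2 without a mismatch. The stretch that tells mt-Co1 from Gm29216 is shown here, with the differing bases in capitals, as bases 1054 to 1083 of mt-Co1 on the plus strand and the start of the copy on the minus strand of GRCm38:
mt-Co1, chrM:6381-6410: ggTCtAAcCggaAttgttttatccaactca
Gm29216, chr1:24616168-24616197: ggATtGGcAggaTttgttttatccaactca
After these bases the 2 sequences are identical to the end, so that a read from the 3' end fits both.

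Gm29216 had 4488, 4593 and 3759.5 CPM in proestrus, 4636, 5198 and 5983 in estrus, 5482, 4403 and 6002 in metestrus and 4221, 4456 and 3768 in diestrus, several times the counts given to mt-Co1 itself. With both summed, mt-Co1 had 5065, 5217 and 4293 CPM in proestrus, 5423, 6165 and 6847 in estrus, 6193, 4945 and 6710.4 in metestrus and 4686, 5089 and 4321 in diestrus, and the change into estrus was 0.34 with an adjusted p of 0.157. The rise of mt-Co1 was thus not called once the copy was added, and neither was its fall to diestrus (-0.39, adjusted p = 0.0914).

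For mt-Co2 the sum with Gm28661 was 2379, 2260.3 and 2056 CPM in proestrus, 1999, 2273 and 2648 in estrus, 2489.6, 2039 and 2713 in metestrus and 2191, 2327 and 1871 in diestrus. Replicates that were far apart for mt-Co2 alone, such as 685 to 1592 CPM in proestrus, came to within 2056 to 2379 CPM. For mt-Nd3 the sum with Gm28438, its copy with 1 mismatch in 345 aligned bases (T3C, counted from the first base of the gene), was 886, 771 and 675 CPM in proestrus, 508, 571 and 762 in estrus, 983, 852 and 934 in metestrus and 781, 1045 and 1027 in diestrus. That sum was higher in diestrus than in estrus by 0.63 (adjusted p = 0.0191), with an adjusted F test p of 0.051.

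**Figure D4:**
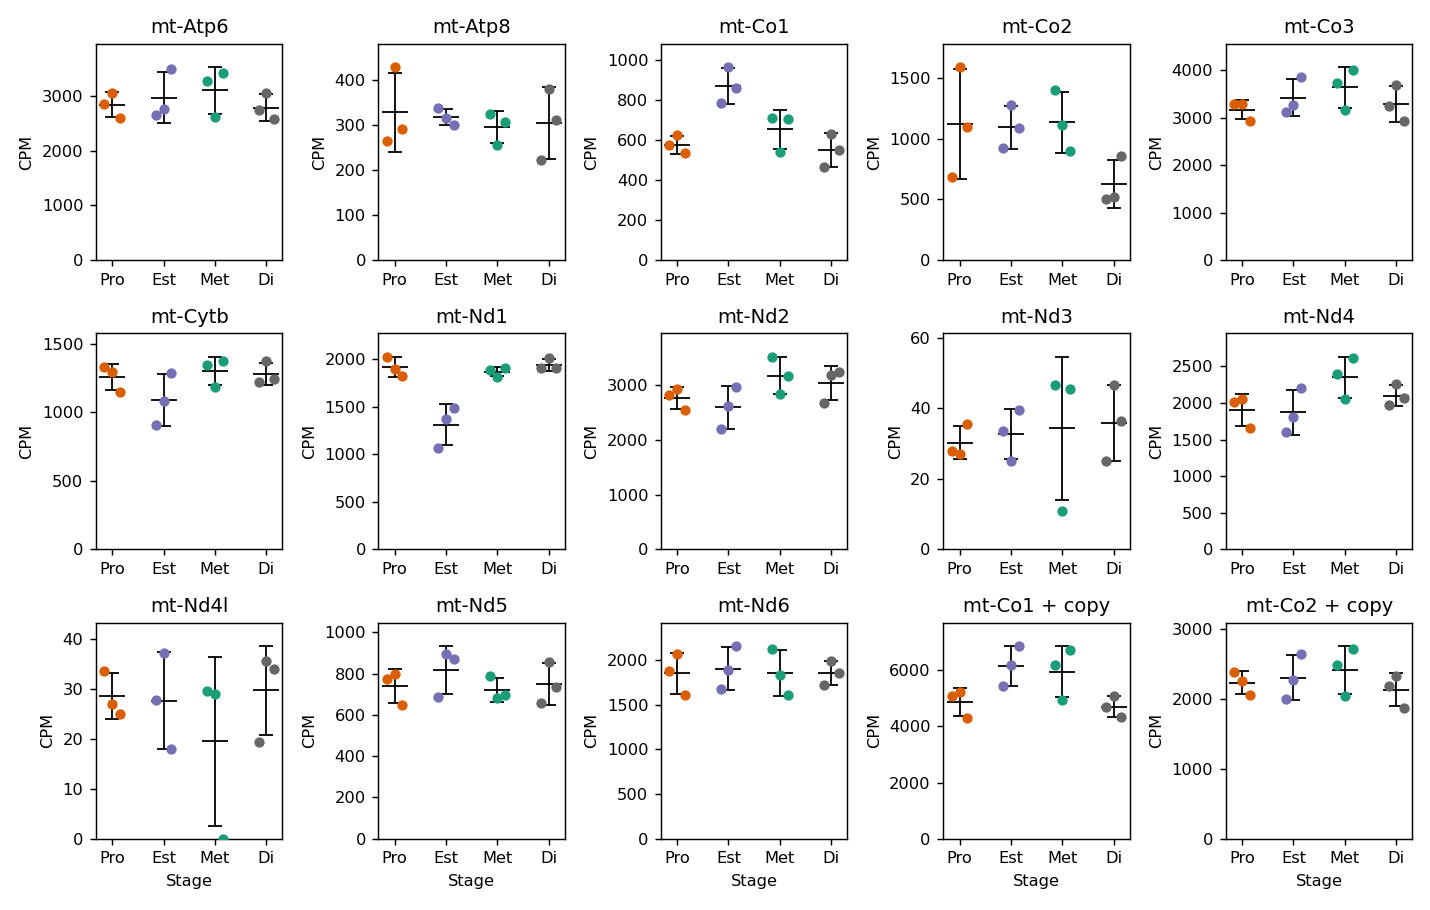
CPM by stage of the 13 mitochondrial genes, and of mt-Co1 and mt-Co2 with the counts of Gm29216 and Gm28661 added (last 2 panels); points are uteri (3 per stage), bars the mean and SD, each axis starts at 0. mt-Nd1 is lowest in all 3 estrus uteri, and the high estrus points of mt-Co1 alone overlap with metestrus once the copy is added.

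Between the other pairs of stages few members were called. From estrus to metestrus, Cox6c, Ndufb4, Ndufaf7, Ndufa4l2 and mt-Nd1 rose and none fell, where 2.83% of all genes rose and 4.73% fell. The rise of Ndufaf7 (adjusted p = 0.0471) held in 2 of 12 fits with 1 sample left out (adjusted p up to 0.127, without metestrus replicate 6), and was lost in other settings, DESeq2 and limma-voom among them. The nuclear median was 0.09. From metestrus to diestrus edgeR called no member, where 0.133% of all genes rose and 0.0913% fell, and 11 nuclear and 1 mitochondrial genes had an unadjusted p under 0.05, while DESeq2 called 1 member. The nuclear median there was 0.19, with 75 of 90 above 0.

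In metestrus against proestrus, Ndufa11 and Atp5g3 were lower and no member was higher, where 1.82% of all genes were lower and 2.49% higher. In proestrus against diestrus, Ndufa11 was higher, and Cox6c and Cox8b were lower, where 4.62% of all genes were higher and 3.91% lower. The nuclear median of that last comparison was 0.03, and it was -0.011 when libraries were scaled by their totals, so that no direction is given.

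Other mitochondrial genes were read from lists, whose counts stand beside 7.46% of all genes that fell into estrus and 9.67% that rose, and 9.72% that rose from estrus to diestrus. Among 21 genes of the mobile electron carriers and of ubiquinone synthesis, 4 fell into estrus and 4 rose to diestrus, with medians of -0.26 and 0.25. Cycs, cytochrome c, fell by 1.14 (adjusted p = 0.00145) and Cyc1, its partner in complex III, by 0.73 (adjusted p = 0.00187). Of 77 genes of the mitochondrial ribosome, which translates the mt- mRNAs, 13 fell and 0 rose, with a median of -0.40. Mrpl41 (-1.24), Mrpl57 (-0.91) and Mrps26 (-0.69) had the smallest F test p among them.

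Of 19 citric acid cycle genes, 4 fell into estrus, among them Idh3a (-1.20, adjusted p = 0.0028), Mdh2 (-0.77, adjusted p = 0.00172) and Suclg1 (-0.51, adjusted p = 0.0211). Of 36 other assembly factors of the complexes, 1 fell and the median was -0.20. Of 9 transporters and partners of the ATP synthase 3 fell, including the outer membrane channel Vdac3 (-0.62, adjusted p = 0.0149). Of 19 genes for processing and stability of mitochondrial RNA, 1 fell, with a median of -0.40.

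Among the genes for transcription of mitochondrial DNA, Mterf3 (0.88, adjusted p = 0.00998) and Mterf4 (0.68, adjusted p = 0.0221) rose into estrus and none of 15 fell, a count near the 9.67% of all genes that rose, with a list median of -0.04. Tfam, the packaging and transcription factor, had a change of -0.22 (adjusted p = 0.328). Of 14 regulators of mitochondrial biogenesis, Nfe2l2 rose by 0.53 (adjusted p = 0.0358) and none fell, which is no larger a share than the 9.67% of all genes. Of 11 genes of mitochondrial removal and dynamics, the mitophagy receptors Bnip3 and Bnip3l rose into estrus, by 2.65 (adjusted p = 6.7e-05) and 1.07 (adjusted p = 0.00177). Of 7 uncoupling and antioxidant genes, Txn2 fell by 0.59 (adjusted p = 0.0102), and Ucp1 and Ucp3 had no count in any sample.

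The promoters of the nuclear members were read for letters of factors known to act on respiratory genes. RefSeq's GRCm38.p6 table held promoters (250 bases before to 50 after the start) of 76 of the 94 nuclear genes, 81 in all. GCGCATGC, the core of the site of Nrf1 (nuclear respiratory factor 1), was found on either strand in 14.8% of them and in 2.71% of all 32851 promoters of the table. CCGGAAG, a core of the ETS factor Gabpa, was found in 22.2% against 8.86%, AAGATGGC, a core of Yy1, in 13.6% against 2.75%, TCAAGGTCA, the element of estrogen-related receptors, in 2.47% against 0.423%, and CCAAT in 43.2% against 37.4%. The promoters of the table were taken whether or not their genes had counts here, and no comparison with expressed genes alone was made. Of 15 genes called by the F test that had a promoter, 4 held the Nrf1 letters, beside 12 of all 76 nuclear genes with a promoter. The Gabpa letters were in 3 of the 15 (18 of 76) and the Yy1 letters in 2 (11 of 76). Those of estrogen-related receptors were in 1 (2 of 76) and CCAAT in 6 (34 of 76). A link of the letters to the stage changes was not tested. The letters GCGCATGC overlap with their own reverse complement, so that a palindromic run counts on both strands.

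Promoters of 3 called genes are shown, 5' to 3' on the strand of the gene. They carry letters of Nrf1, Gabpa or the estrogen-related receptors, which are in capitals. CCAAT was not marked, and it also occurs in the Atp5g3 promoter. Ndufa11 holds the Nrf1 letters on both strands in an overlapping run that begins 60 bases before the start. In Uqcr11 the Gabpa letters begin 66 bases and the Nrf1 letters, on the other strand, 4 bases before the start, and in Atp5g3 the estrogen-related receptor letters lie on the other strand, 52 bases before it:
Ndufa11, chr17:56717512-56717811, plus strand: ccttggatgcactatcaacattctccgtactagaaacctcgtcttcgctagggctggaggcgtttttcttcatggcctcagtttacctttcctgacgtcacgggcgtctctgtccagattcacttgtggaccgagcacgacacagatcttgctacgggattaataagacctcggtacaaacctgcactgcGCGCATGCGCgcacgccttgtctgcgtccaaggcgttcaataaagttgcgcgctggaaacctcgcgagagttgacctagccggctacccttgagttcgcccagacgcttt
Uqcr11, chr10:80406772-80407071, minus strand: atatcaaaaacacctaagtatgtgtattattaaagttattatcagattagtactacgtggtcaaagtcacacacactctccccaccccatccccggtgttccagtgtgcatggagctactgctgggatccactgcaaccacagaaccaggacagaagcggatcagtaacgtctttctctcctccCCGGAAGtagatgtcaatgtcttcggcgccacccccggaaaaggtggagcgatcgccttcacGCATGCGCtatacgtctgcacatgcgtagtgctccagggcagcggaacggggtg
Atp5g3, chr2:73911277-73911576, minus strand: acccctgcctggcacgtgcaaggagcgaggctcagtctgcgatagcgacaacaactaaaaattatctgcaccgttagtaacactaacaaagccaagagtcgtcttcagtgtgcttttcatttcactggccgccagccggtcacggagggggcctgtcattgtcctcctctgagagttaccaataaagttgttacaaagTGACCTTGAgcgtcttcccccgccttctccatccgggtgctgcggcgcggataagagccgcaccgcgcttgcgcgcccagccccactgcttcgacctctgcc
A match describes letters only and does not show that a factor binds there.

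Markers of several cell types also differed in level between stages, beside 9.67% of all genes that rose and 7.46% that fell into estrus. From estrus to diestrus 9.72% of all genes rose and 13% fell. Of 8 macrophage markers, 7 rose from proestrus to estrus, and their summed level was 244 to 307 CPM in proestrus and 566 to 634 in estrus. Of 9 smooth muscle markers 5 rose, and of 8 markers of dividing cells 6 fell, their sum going from 393 to 591 CPM in proestrus to 132 to 146 in estrus. Of 10 epithelial markers 2 rose and none fell into estrus, and 9 fell from estrus to diestrus. In that last comparison 4 dividing-cell, 5 uterine, 2 pericyte, 1 endothelial and 1 skeletal muscle markers rose. There 3 smooth muscle, 3 macrophage and 1 adipocyte markers fell, and of the stromal markers 1 rose and 2 fell. Of the 8 pericyte markers 4 rose into estrus, of the 8 endothelial markers none did, and of the 9 stromal markers 2 rose and 1 fell. Uterine genes were present, and of 10 tested 5 fell into estrus. Of the neutrophil markers 4 were tested and none was called in this comparison. Of the 4 skeletal muscle markers 1, Ckm, rose (1.99). The eosinophil marker Epx, the brown fat marker Ucp1 and the skeletal muscle marker Myh4 had no count in any sample, but other genes of their lists did. The 6 listed brown fat markers summed to 253 to 363 CPM in proestrus and 229 to 254 in estrus, and the 1 tested was not called. The 8 listed skeletal muscle markers summed to 67.4 to 104.5 CPM in proestrus and 68.1 to 137 in estrus. The 5 eosinophil markers summed to at most 6.79 CPM in a sample. None of the 3 tested red cell markers was called, though the sum of the 5 listed ran from 163 to 1433 CPM in metestrus. Of the 3 tested adipocyte markers none was called from proestrus to estrus. The part of these cell types in the levels of the nuclear members was not tested.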

How the data were processed

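Poly(A) RNA of 12 uteri was sequenced as 3' TagSeq. Per the submitters' processing notes, the tools included kallisto (listed as version 0450), FastQC and DESeq2 (listed as 1181). The deposited tables give an estimated count and a TPM value per transcript and sample, as the authors made them. The annotation release and the use of strand are not given in the sources used here. Without molecular identifiers PCR copies cannot be told apart, so that limits of 3 counts cover counting error only.

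Transcript identifiers without their version were matched to GENCODE M21 (GRCm38) for 97.7% of transcripts. The unmatched transcripts, 0.619% to 0.774% of the counts, were left out. Estimated counts were summed per gene, rounded to whole numbers, filtered with filterByExpr by stage and scaled with TMM. They were fitted with edgeR 4.0.16 (R 4.3.3) by the quasi-likelihood method over all 12 samples, with an F test over the 4 stages, 6 contrasts and Benjamini-Hochberg adjustment over 12052 genes. The labels do not pair samples, and p-values measure the spread between these animals. Alternatives used DESeq2 1.42.0, limma 3.58.1, other filters, other scalings, counts scaled from the deposited TPM, samples left out, and counts of genes with at least 80% of their 31-base words in a member added to that member. The fit was tested on simulated data.

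The members and the gene lists were chosen with earlier results of these data known. Values in every sample are given for the mitochondrial genes, for the 15 nuclear genes with the smallest F test p, and for tissue-restricted isoforms with their broad counterparts. Also named are the member with the most counts in each complex and up to 5 members per contrast and direction. Of each other list up to 3 genes with the smallest p are named. Genes named beyond that rule, such as Ndufv2, Uqcr10, Cox7b, Cox5b, Tfam and Atp5g2, were chosen after their values were seen. A tested nuclear member enters the counts and sums but is not reported here by itself or shown in the heat map.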

Additional observations from a re-analysis of the deposited data

How the results depend on the processing

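No called log2 fold change of a member changed direction under the alternatives run, but medians near 0 did, as given in the report, and the number of members called moved. Genes of the other lists were fitted with the main settings only. From estrus to metestrus the comparison gave 5 called members, against 3 with no filter on low counts, 1 with library totals, 3 with limma-voom and 0 with only the 6 samples of those stages. Over all genes, 341 rose and 570 fell in the main fit, and those settings called 1152, 770, 843 and 299. For diestrus against metestrus the 0 became 1 with no filter and 1 with DESeq2. Those settings called 256 and 148 of all genes, beside 16 that rose and 11 that fell in the main fit. For metestrus against proestrus the 2 became 1 with no filter, 4 with a mean of at least 50 counts, 1 with DESeq2 size factors, 1 with library totals, 7 with DESeq2, 0 with counts scaled from TPM and 0 with only the 6 samples. In the same order 935, 414, 507, 440, 679, 157 and 42 of all genes were called, beside 300 higher and 219 lower in the main fit. For proestrus against diestrus the 3 became 1 with counts scaled from TPM. That setting called 539 of all genes, beside 557 higher and 471 lower in the main fit. The F test called 28 nuclear members in place of 18 with a mean of at least 50 counts, and 1 mitochondrial member in place of 2 with the copies added. It called 1844 and 2797 of all genes with those settings, beside 2793 in the main fit. The cause of these moves was not tested.

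Leaving out 1 sample at a time gave 9 to 28 nuclear and 0 to 3 mitochondrial members by the F test. The contrasts gave 10 to 36 (estrus against proestrus), 1 to 8 (metestrus against estrus), 0 to 1 (diestrus against metestrus), 1 to 4 (proestrus against diestrus), 0 to 10 (metestrus against proestrus) and 13 to 29 (diestrus against estrus). Over all genes the F test gave 1910 to 3428. The contrasts gave, in order, 1100 to 2414, 341 to 1364, 5 to 173, 519 to 1281, 78 to 1080 and 1910 to 3146. The log2 ratio of nuclear to mitochondrial counts in proestrus, estrus, metestrus and diestrus was -0.56, -0.90, -0.93 and -0.63 with the copies added, 0.10, -0.15, -0.21 and 0.068 without mt-Co3, and 0.45, 0.17, 0.22 and 0.45 from TPM. Its sign therefore depends on what is summed, whereas estrus stayed below proestrus by 0.26 to 0.34. With a sample left out it was -0.23 to -0.12, -0.55 to -0.38, -0.61 to -0.43 and -0.23 to -0.19.

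Estrus and diestrus share replicate numbers 3, 4 and 5. Deviations of same-numbered samples correlated at -0.043, 0.013 and -0.017, and no estrus sample correlated best with its own number. With 3 samples per stage, this check cannot exclude a link between same-numbered samples. With the replicate block 18 members were called in place of 21, and 2935 of all genes beside 1172 higher and 1572 lower in the main fit.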
